A study of Danio rerio with 12 samples.

Results

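The epidermal keratin genes krt4, krt5, krt8, krt15, krt18a.1, krt18b and cyt1, together with the ictacalcin gene icn, were followed in whole zebrafish embryos at 24 hours post-fertilization (hpf). Members were taken by name: every probe set (a group of short oligonucleotides on the array that reads 1 transcript) to which the array annotation gives one of these symbols. All 8 genes were on the array and 7 had a probe set of their own, among 8793 genes with one in the whole data set. They were read by 10 probe sets, of which 8 name a single gene. The other 2 are shared, 1 between cyt1 and cyt1l and 1 between icn and icn2, so cyt1 was read only together with its neighbour in sequence.

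All embryos were of the wild-type AB strain and grew in E3 medium. The control group was 6 pools with no treatment, and the morphine group was 6 pools kept continuously in 10 nM morphine, an opioid, dissolved in the water from 5 hpf. About 100 whole embryos at 24 hpf made up a pool, and 1 Affymetrix Zebrafish Genome Array was hybridized per pool. Since whole embryos were pooled, fewer cells of a type and less RNA per cell cannot be told apart.

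Keratins are the intermediate filament proteins of epithelial cells. A type I keratin pairs with a type II keratin, and the paired chains assemble into filaments that are anchored at desmosomes and hemidesmosomes and give the sheet its mechanical strength. In the zebrafish embryo the skin has an outer layer, the periderm, which derives from the enveloping layer of the blastula, and a basal layer beneath it that rests on the basement membrane. Krt4, krt5 and krt8 are type II keratins, and cyt1, krt15, krt18a.1 and krt18b are type I keratins. Ictacalcin is a calcium-binding protein of the S100 family made in fish skin and is no keratin.

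Of the members, krt18b was lower in morphine-exposed embryos by a log2 fold change of -0.34, which is -21.1% (95% interval -29.0% to -12.2%, n = 6 per group). The other 9 probe sets did not pass the test. A probe set was called at a limma adjusted p under 0.10, a false discovery rate of 10%. Thus 1 of 10 member probe sets (10%) was called, beside 6.85% of all 15502 probe sets tested (1062, of which 485 were higher and 577 lower). With so few members a share of 1 in 10 is near that background. The median log2 fold change of the members was -0.03 and 6 of the 10 lay below 0, against a median of 0.01 over all probe sets.

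Most members gave high signals in these whole-embryo RNAs, which cannot show the tissue they came from. In control embryos the log2 signal of krt4 stood at percentile 99.6 of all probe sets, that of the shared cyt1 probe set at 99.9 and that of the brightest icn probe set at 99.1. Krt18b stood at percentile 82.2 and krt15 at 60.2. Ordered by mean control log2 signal, the shared cyt1 probe set came first (14.06), followed by krt4 (13.67), icn (12.79), krt8 (12.26), krt5 (11.77), krt18a.1 (11.51), krt18b (8.30) and krt15 (6.56). Each probe set binds with its own strength, so this orders signals and not amounts of RNA. The closest neighbours in the order, krt5 and krt18a.1, still differed by more than the SD among control pools, which was 0.12 for krt5 and 0.07 for krt18a.1.

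**Figure D1:**
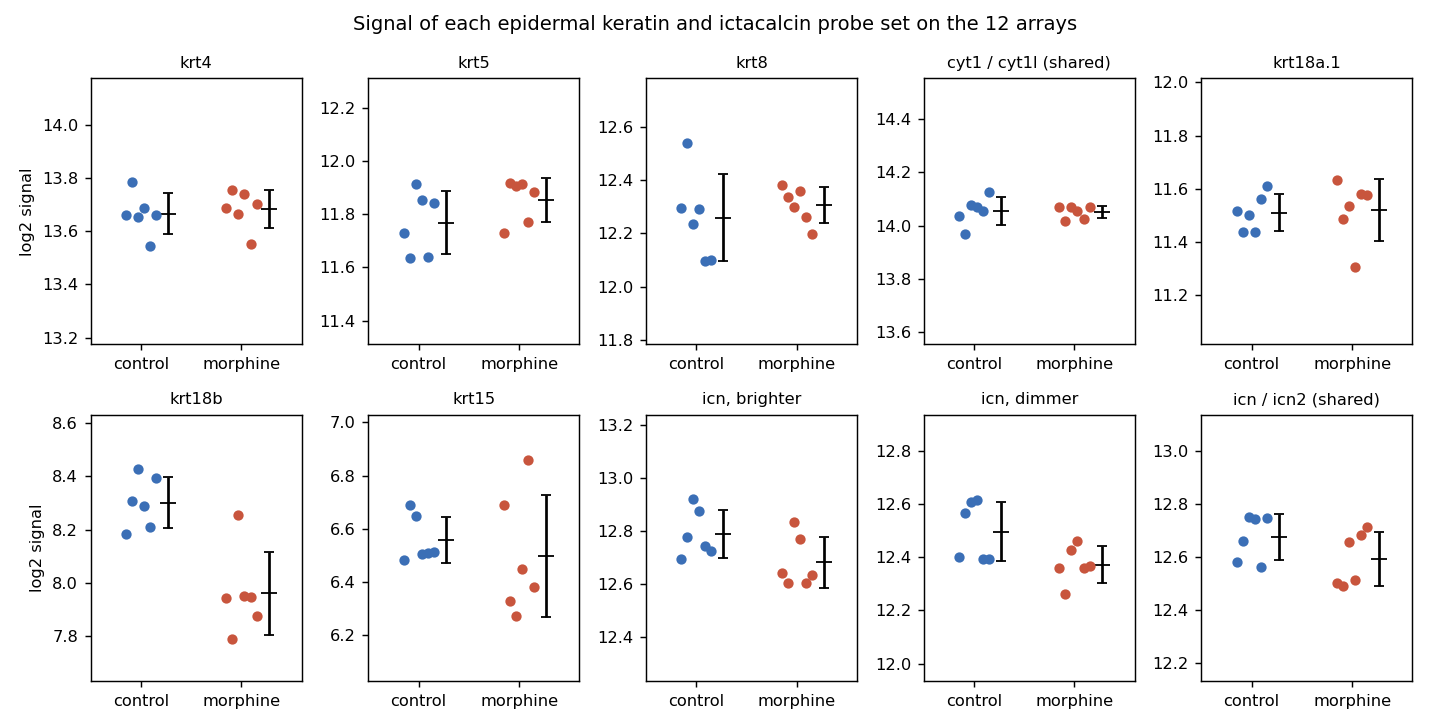
Log2 signal (y axis, each panel spans 1 log2 unit) of the 10 member probe sets on 6 control and 6 morphine arrays, 1 point per array, with the mean and SD as bars. Krt18b is the panel in which 5 of the 6 morphine arrays lie below every control array, at 7.79 to 7.95 against a lowest control of 8.18.

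Among the type II keratins, krt4, a keratin of the enveloping layer and periderm whose promoter is widely used to drive transgenes in skin, was nearly level. Its control arrays, in the order of their replicate numbers 1 to 6, read 13.66, 13.79, 13.66, 13.69, 13.54 and 13.66, and its morphine arrays read 13.69, 13.76, 13.66, 13.74, 13.55 and 13.70. The groups overlapped over nearly their whole range. The log2 fold change was 0.02 (SE 0.05, 95% interval -0.09 to 0.13, limma adjusted p = 0.918), an interval that in percent runs from -6.34% to 9.35%.

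Krt5, a periderm keratin of the fish embryo, read 11.73, 11.63, 11.91, 11.85, 11.64 and 11.84 on the control arrays and 11.73, 11.92, 11.91, 11.91, 11.77 and 11.88 on the morphine arrays. The lowest values were controls 2 and 5, and the groups overlapped. Its log2 fold change was 0.09 (SE 0.06, 95% interval -0.05 to 0.22, limma adjusted p = 0.549).

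Krt8, the type II partner of keratin 18 in simple epithelia, read 12.30, 12.54, 12.24, 12.29, 12.10 and 12.10 in controls and 12.38, 12.34, 12.30, 12.36, 12.26 and 12.20 in morphine pools. The control arrays held both the highest and the lowest values, so the morphine range lay inside the control range. Between the groups the log2 fold change was 0.05 (SE 0.07, 95% interval -0.10 to 0.20, limma adjusted p = 0.808).

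Among the type I keratins, the shared probe set of cyt1 and cyt1l varied least, with within-group SDs of 0.05 in controls and 0.02 in morphine pools. Controls read 14.04, 13.97, 14.08, 14.07, 14.06 and 14.13, and morphine pools read 14.07, 14.02, 14.07, 14.05, 14.03 and 14.07. The morphine values lay inside the control range, and the limma adjusted p was 0.980 with a 95% interval of the log2 fold change from -0.10 to 0.09. These signals are close to the highest in the whole table, 14.40, and whether the upper end of the array's range had a part in the narrow spread was not tested.

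Krt18a.1, a type I keratin of simple epithelia, read 11.52, 11.44, 11.50, 11.44, 11.56 and 11.61 in controls and 11.63, 11.48, 11.53, 11.31, 11.58 and 11.58 in morphine pools. Morphine pools held both extremes. This gave a log2 fold change of 0.01 (SE 0.06, 95% interval -0.12 to 0.14, limma adjusted p = 0.965).

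Krt18b, the second zebrafish gene related to keratin 18, behaved otherwise. Control arrays read 8.18, 8.31, 8.43, 8.29, 8.21 and 8.39, and morphine arrays read 7.94, 7.79, 8.25, 7.95, 7.95 and 7.88. Morphine pool 3 lay within the control range and the other 5 lay below it. The means were 8.30 ± 0.10 in controls and 7.96 ± 0.16 in morphine pools (SD, n = 6), a 1.27-fold lower signal with an SE of 0.07 on the log2 scale. The limma adjusted p was 0.0100, and an exact two-sided permutation test over the 12 arrays gave p = 0.00649, where 0.00216 is the smallest p that 6 against 6 arrays allow. The size of the change was at percentile 97.5 of all probe sets. In each of the 6 pairs of pools with the same replicate number, the morphine pool was lower, by log2 differences of -0.52 to -0.17. How many of all probe sets ran 1 way in every pair was not counted.

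Krt15, a type I keratin, was the dimmest member and the most variable in morphine pools. It read 6.48, 6.69, 6.65, 6.51, 6.51 and 6.51 in controls and 6.69, 6.33, 6.27, 6.45, 6.86 and 6.38 in morphine pools. Morphine pools lay on both sides of the control range, with an SD of 0.23 against 0.09. The log2 fold change was -0.06 (SE 0.09, 95% interval -0.25 to 0.13, limma adjusted p = 0.802).

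Ictacalcin was read by 2 probe sets that the annotation gives to icn alone, and neither passed the test. Whether they also bind RNA of icn2 was not tested. The brighter one read 12.69, 12.78, 12.92, 12.87, 12.74 and 12.72 in controls and 12.64, 12.60, 12.83, 12.77, 12.60 and 12.64 in morphine pools. The dimmer one read 12.40, 12.57, 12.61, 12.62, 12.39 and 12.39 in controls and 12.36, 12.26, 12.43, 12.46, 12.36 and 12.37 in morphine pools. On both, every morphine pool was below the control pool of the same number, while the groups as a whole overlapped. Both read the same gene, and the share of all probe sets with such a run of pairs was not counted. The log2 fold changes were -0.11 (limma adjusted p = 0.386, exact permutation p = 0.0758) and -0.12 (limma adjusted p = 0.301, exact permutation p = 0.0563).

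The probe set shared by icn and icn2 read 12.58, 12.66, 12.75, 12.74, 12.56 and 12.75 in controls and 12.50, 12.49, 12.66, 12.51, 12.68 and 12.71 in morphine pools. It was lower in 5 of 6 same-numbered pairs, with a log2 fold change of -0.08 (SE 0.06, limma adjusted p = 0.549). Around the group means the icn probe sets followed each other with a Pearson r of 0.83, but followed the shared one with r of only 0.30 and 0.41 over the 12 arrays.

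Krt18b and krt18a.1 are both related to keratin 18, and whether they differed in response was asked within each array, where anything that scales a whole array cancels. The log2 signal of krt18b minus that of krt18a.1 was -3.21 ± 0.11 in controls and -3.56 ± 0.19 in morphine pools (SD, n = 6). The change of this difference was -0.35 (SE 0.09, exact two-sided permutation p = 0.00866). Set against krt4, the change was -0.36 (SE 0.09), and set against the mean of the 6 other genes with a probe set of their own it was -0.34 (SE 0.07), each with an exact permutation p of 0.00649. Adjusted over these 3 differences, which share krt18b and were chosen after the values were seen, each p was 0.00866. Krt18b was the 1 called member and the other members changed little, so the differences largely restate its own change. In all 3, morphine pool 3 reached into the control range.

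**Figure D2:**
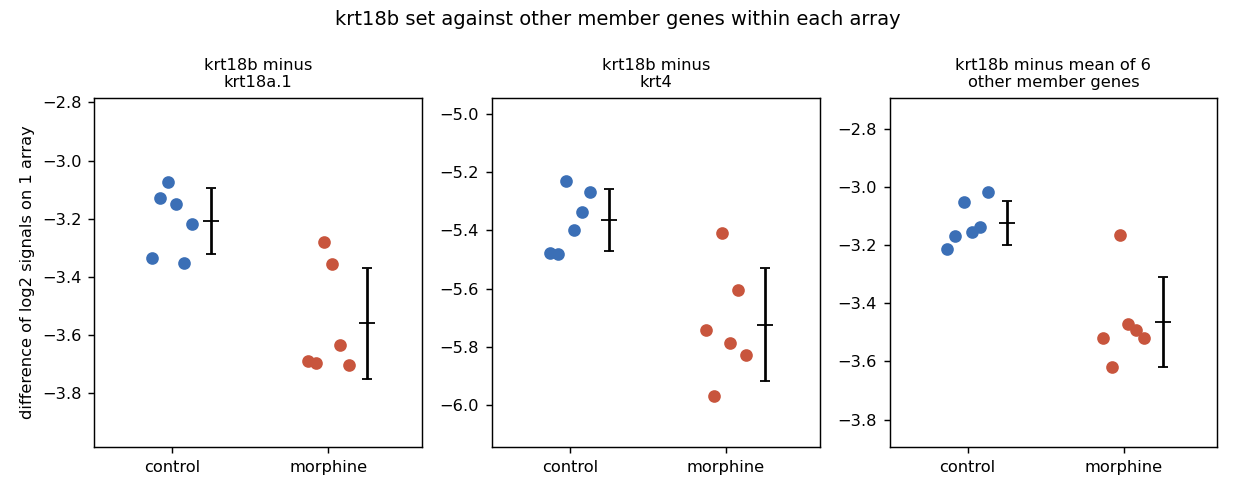
Difference on each array between the log2 signal of krt18b and that of krt18a.1, of krt4 or of the mean of 6 other member genes (y axis, log2 units), 1 point per array with mean and SD. In the right panel, 5 morphine arrays lie at -3.62 to -3.47, and morphine pool 3 at -3.16 lies among the controls.

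The members did not vary as one group between pools. With each group mean removed, the 28 pairs of member genes had Pearson correlations over the 12 arrays from -0.72 to 0.72. The lowest was krt8 with the shared cyt1 probe set, and the highest krt18b with icn. For both krt18b (8.25) and icn (12.83), morphine pool 3 was the highest morphine pool. How far the correlation of 0.72 rests on that pool was not tested. Krt4 and krt8 followed each other (r = 0.68), as did krt5 with icn (r = 0.54) and krt5 with cyt1 (r = 0.51). Krt18a.1 ran against krt4 (r = -0.54) and krt8 (r = -0.50). Krt18b had almost no relation to krt18a.1 (r = 0.06), krt4 (r = -0.09) or krt8 (r = -0.03). These are descriptions of 12 arrays that were normalized together, with small spreads around each mean.

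**Figure D3:**
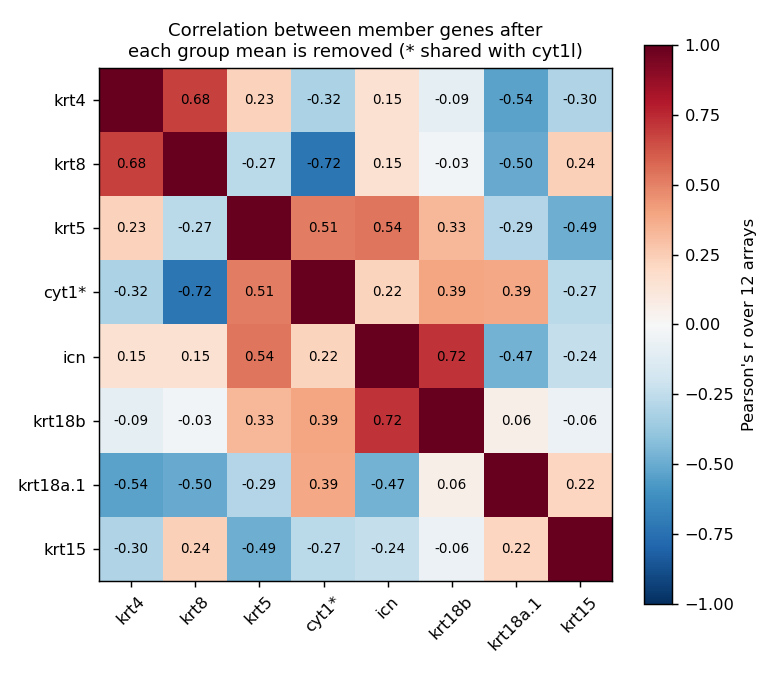
Pearson correlation (colour and printed value) between the log2 signals of member genes over the 12 arrays after each group mean was removed. The red cells off the diagonal with the highest values are krt18b with icn at 0.72 and krt4 with krt8 at 0.68, and the deepest blue is krt8 with cyt1 at -0.72.

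In the gene order of the GRCz12tu assembly, krt5, krt8 and krt18a.1 are direct neighbours among protein-coding genes, and none of them was called. Krt18b lies with 1 protein-coding gene between it and krt4, whose log2 fold change was 0.02. Icn is next to icn2, cyt1 is next to krt17, and krt15 is next to krt99.

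The 10 probe sets whose pattern over the 12 arrays was most like the mean of the member genes, after group means were removed, were those of tma7 (r = 0.93), tmem167b (r = 0.86), tom1, cnih1, rimoc1, usf1, c8g, xiap, pofut1 and capn2a (r = 0.81). None is a keratin. They are the highest values among all probe sets outside the members, over only 12 arrays, and the members themselves did not vary together. How high r would reach by chance was not tested. Of the 10, 1 was called, beside 6.85% over all probe sets. It was that of capn2a, a calpain protease, with a log2 fold change of -0.26 (limma adjusted p = 0.0206).

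Other keratin and ictacalcin genes, found by gene symbol alone, were 10 genes with 14 probe sets. Keratin genes carried under another symbol, or not matched in the tables used, are not counted here. Of these, 4 were called (28.6%, beside 6.85% over all probe sets), 3 lower and 1 higher, with a median log2 fold change of -0.15 and 9 of 14 below 0. Counted with the replicate number as a block in the fit, 7 were called, 6 lower and 1 higher. That fit called 1547 probe sets in all, against 1062 without the block. With renewed quantile normalization or median centring of the arrays 3 were called, 2 lower and 1 higher, beside 1052 and 1053 in all. This list was set with earlier results of these data known.

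Krt1-19e, a type I keratin of basal epidermal cells, was lower on the brighter of its probe sets. Controls read 9.62, 9.63, 9.74, 9.61, 9.83 and 9.80, and morphine pools read 9.28, 9.03, 9.33, 9.21, 9.40 and 9.30. The groups did not overlap, which was so for 3.61% of all probe sets and for 0 of the 10 member probe sets. The log2 fold change was -0.45 (SE 0.07, limma adjusted p = 0.000659).

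Krt1-19d, its direct neighbour in the genome and another type I keratin, read 9.10, 9.23, 9.22, 9.14, 9.08 and 9.16 in controls and 8.87, 8.51, 8.88, 8.46, 8.88 and 8.38 in morphine pools. The groups did not overlap either, and the morphine pools fell into a brighter set (1, 3 and 5) and a dimmer set (2, 4 and 6). Its log2 fold change was -0.49 (SE 0.09, limma adjusted p = 0.00365). The same split of the morphine pools was seen on krt17 (12.53 to 12.58 above 12.21 to 12.46), krt99, the brighter krt91 probe set, anxa1b, anxa1a and oclna. It ran the other way on the member krt4 (13.55 to 13.69 below 13.70 to 13.76). On pleca (8.79 to 9.01 below 9.20 to 9.27) and lama5 (7.44 to 7.65 below 7.70 to 7.95) it was likewise reversed. Anxa1b, anxa1a, oclna, pleca and lama5 are given further below. Krt18b was highest in pool 3 and lowest in pools 2 and 6. Its pool 4 (7.95) was level with pools 1 and 5 (7.94 and 7.95), so the split was not complete. How many of all probe sets showed such a split was not counted. The cause of this split was not tested.

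The dimmer probe sets of krt1-19d and krt1-19e had a similar mean difference and a far wider spread. For krt1-19d the log2 fold change was -0.56 (SE 0.21, limma adjusted p = 0.177, 0.0103 with the replicate block and 0.0244 without morphine pool 1). For krt1-19e it was -0.44 (SE 0.21, limma adjusted p = 0.316, and 0.000776 with the replicate block). On both, every morphine pool was lower than the control pool of the same number, a count with no share over all probe sets beside it. Control pools 1 and 2 were the highest of all 12 arrays on both. For krt1-19e, morphine pools 1 and 2 came next (7.40 and 7.17). The block also takes up such a split between numbers 1 and 2 and the rest, beside any pairing.

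Krt97 was the keratin that rose. Controls read 11.68, 11.63, 11.55, 11.49, 11.51 and 11.51, and morphine pools read 11.96, 11.79, 11.68, 11.69, 11.93 and 11.78. The lowest morphine pool and the highest control pool both round to 11.68, and the groups did not overlap. Its log2 fold change was 0.25 (SE 0.06, limma adjusted p = 0.0265).

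Krt94 passed narrowly, with 7.20 ± 0.10 in controls and 6.93 ± 0.22 in morphine pools (SD, n = 6), a log2 fold change of -0.28 and a limma adjusted p of 0.0997. The call was lost when any single pool other than morphine pool 1 was left out (limma adjusted p up to 0.215), and also after median centring of the arrays (0.105) or renewed quantile normalization (0.127). Krt17, a type I periderm keratin next to cyt1, had a log2 fold change of -0.21 and was not called (limma adjusted p = 0.112), but passed without control pool 5, morphine pool 1 or morphine pool 5 (limma adjusted p = 0.0753, 0.0722 and 0.0950). Icn2 had -0.19 and -0.12 on its own probe sets, not called (limma adjusted p = 0.178 and 0.311), and the first was called with the replicate block (limma adjusted p = 0.0832) and without control pool 5 (limma adjusted p = 0.0460). Krt91, krt93, krt95 and krt99 lay between -0.05 and 0.05.

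**Figure D4:**
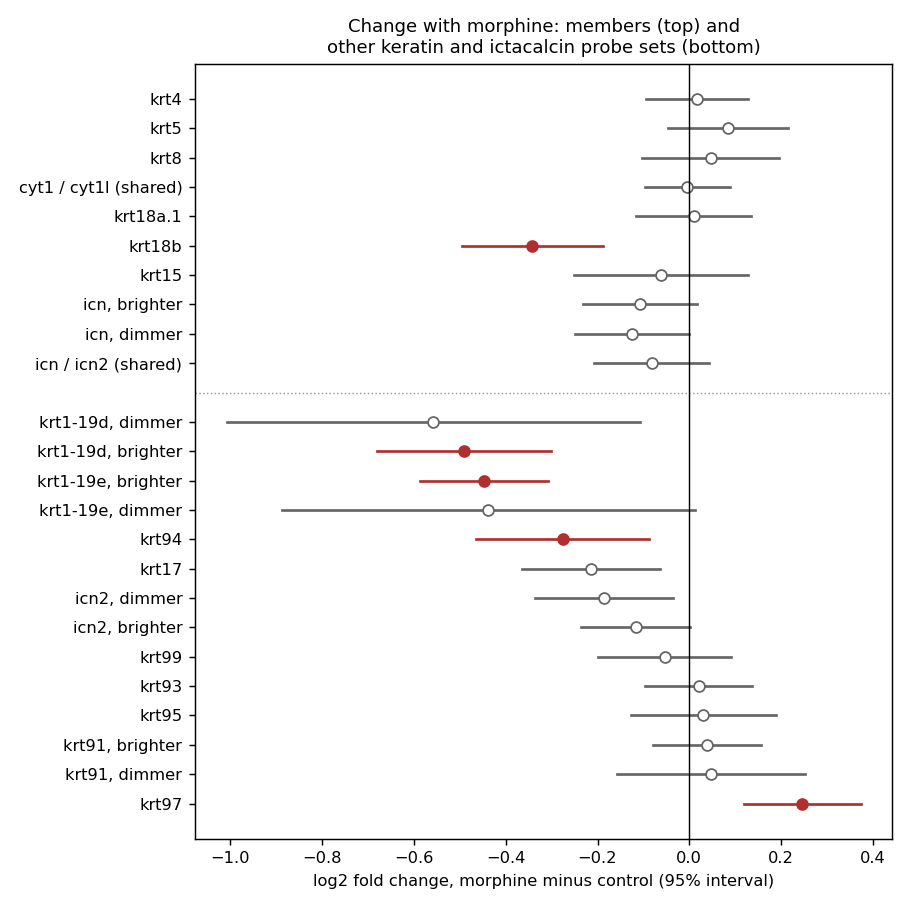
Log2 fold change, morphine minus control (x axis), with 95% intervals for the 10 member probe sets (top) and the 14 other keratin and ictacalcin probe sets (bottom), where brighter and dimmer name the probe sets of 1 gene by control signal. Filled red points passed the limma test, of which krt18b at -0.34 is the 1 member, and open grey points did not.

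The paper used samples above a set RNA integrity number and gives no value per pool. As a sign of RNA quality here, the control probe sets of the actin gene acta1 at the 3′ and 5′ end were read. Whether their difference shows RNA quality alone was not tested. Their log2 difference ran from 3.51 to 5.32 over the arrays and was 4.34 ± 0.59 in controls and 4.51 ± 0.68 in morphine pools (SD, n = 6, exact permutation p = 0.647). Controls 1 and 2 and morphine pool 1 had the lowest differences, at most 3.62 where the other arrays had at least 4.12. With group means removed, krt18b had a correlation of 0.30 with this difference over the 12 arrays, beside a median absolute correlation of 0.36 over all probe sets. Several other members had larger ones, with 0.66 for krt5, 0.53 for the brighter icn probe set, 0.52 for the shared cyt1 probe set and -0.56 for krt8. Krt8 and cyt1, the pair with the most negative correlation between members, thus had opposite signs against the actin difference, and its part in that correlation was not tested. The dimmer krt1-19d and krt1-19e probe sets had -0.90 and -0.91, krt94 had -0.85 and krt97 had -0.81.

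The krt18b difference was as large without those 3 arrays (log2 fold change -0.37, limma adjusted p = 0.0332) and passed with the actin difference as a covariate (limma adjusted p = 0.00550). The brighter krt1-19e and krt1-19d probe sets were also called without those arrays (limma adjusted p = 0.00247 and 0.00926), as was krt97 (limma adjusted p = 0.0379). The dimmer krt1-19d probe set, not called by the main fit, was called without those 3 arrays (limma adjusted p = 0.0643). It was also called with the covariate (limma adjusted p = 0.0109) and, on all arrays, by SAM (q = 0.0922). The dimmer krt1-19e probe set was not called without those 3 arrays, with a log2 fold change of -0.28 in place of -0.44 (limma adjusted p = 0.301). With the covariate it was called, at -0.33 (limma adjusted p = 0.0522).

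**Figure D5:**
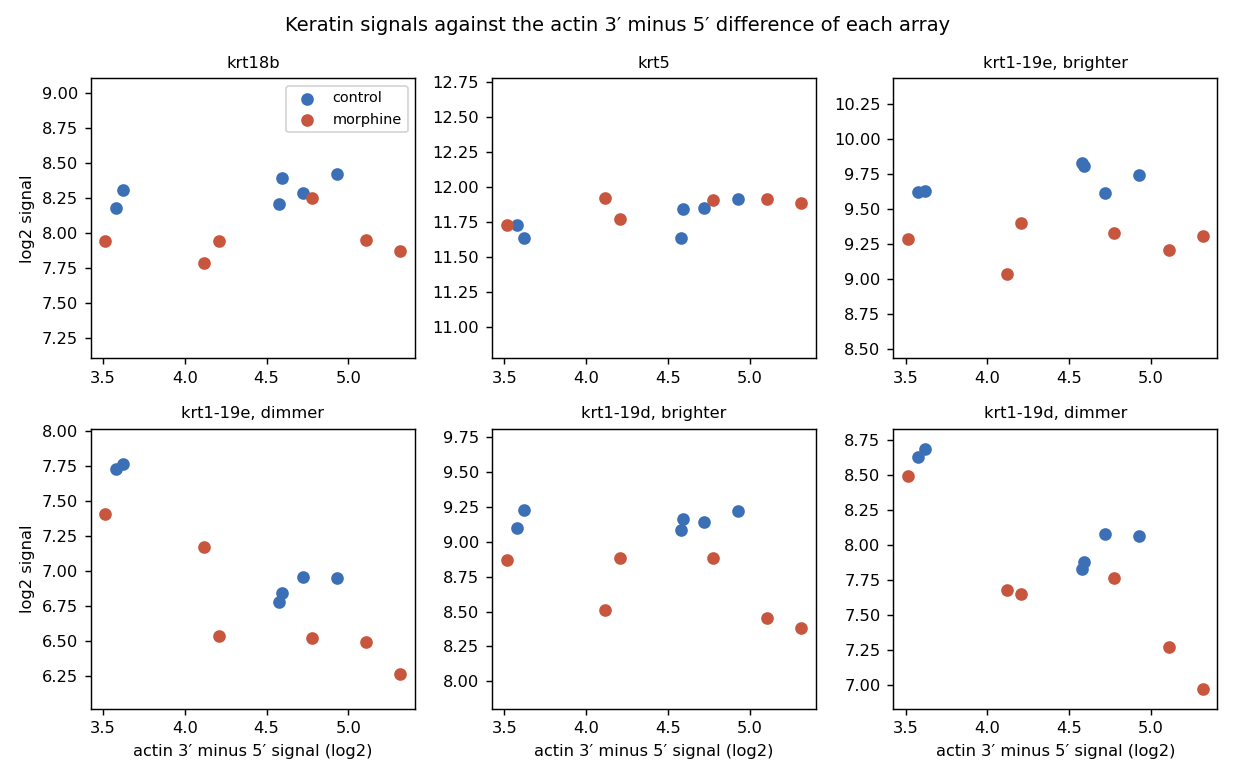
Log2 signal (y axis, each panel spans 2 log2 units) of 2 members and 4 other keratin probe sets against the log2 difference between the 3′ and 5′ actin probe sets of the same array (x axis), 1 point per array, control in blue and morphine in red. The dimmer krt1-19e and krt1-19d probe sets slope down over the whole range from 3.51 to 5.32, while krt18b does not.

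Genes that work beside keratins are given with the share called, to be read beside 6.85% over all probe sets. Of 43 probe sets of junction genes (32 of 45 genes measured), 5 were called (11.6%), 2 higher and 3 lower. The median log2 fold change of the 43 was -0.01. Only the 4 called with the largest change are named. Lower among them were the claudins cldnf (-0.45, limma adjusted p = 0.00261) and cldne (-0.20, limma adjusted p = 0.0307), which seal tight junctions. Both claudin probe sets were dim, with mean control log2 signals of 4.87 and 4.46. With the filter at a log2 signal of 5 on 6 arrays, 3 junction probe sets were called, 2 higher and 1 lower, beside 959 in all. Higher were oclna (0.25, limma adjusted p = 0.00478), another tight junction protein, and pleca (0.26, limma adjusted p = 0.0868), a plectin that links keratin filaments to hemidesmosomes. Pleca has 2 probe sets, and the other was not called higher. Of 17 probe sets of other intermediate filament genes (12 of 22 genes), 1 was called (5.88%). It was that of inab, an internexin of neurons (-0.19, limma adjusted p = 0.0682). A list of epidermal transcription factors, which also held the ligand genes bmp2b and bmp4, had 23 probe sets (19 of 29 genes). Of these, dlx5a (0.22, limma adjusted p = 0.0465) and dlx4a (0.19, limma adjusted p = 0.0517) were called higher (8.70%). The median of the list was 0.11.

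Lists of skin layer markers were read as counts and mean log2 signals, which do not measure how much of a layer is present. The periderm list held 24 probe sets (21 of 25 genes, krt4, krt5 and icn among them). Over the brightest probe set of each gene, its mean log2 signal was 10.04 to 10.13 in controls and 10.03 to 10.07 in morphine pools. In this list 3 were called, all lower (12.5%, beside 6.85% over all probe sets). They were anxa1b (-0.45, limma adjusted p = 0.00127), anxa1a (-0.19, limma adjusted p = 0.0322) and the dim cldne, also counted with the junction genes. Both annexins bind membranes in the presence of calcium. Without the 3 arrays of lowest actin difference 2 were called, beside 917 probe sets in all, and anxa1a was not (limma adjusted p = 0.104). Without control pool 5 or morphine pool 1, 6 were called, beside 872 and 1152 probe sets in all. The basal list held 17 probe sets (12 of 18 genes). Its mean, taken likewise, was 8.08 to 8.19 in controls and 8.07 to 8.15 in morphine pools. There 3 were called (17.6%), krt1-19e and krt94 lower and lama5, a laminin chain of the basement membrane, higher (0.28, limma adjusted p = 0.0912). Krt1-19e and krt94 were also counted with the other keratin genes. The ranges of the groups overlapped in both lists.

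Markers of other cells in the embryo moved in part. Beside 6.85% called over all probe sets, 3 of 5 muscle probe sets were called, all lower (60%). Both probe sets of the myosin light chain gene mylpfa were among them. One gave -0.72 (limma adjusted p = 0.000179), and the brighter gave -0.40 with overlapping groups (limma adjusted p = 0.0195). Also lower were 2 of 17 neural probe sets (11.8%), tubb5 (-0.38) and sox19a (-0.20), and 1 of 4 ionocyte ones (25%), ca2 (-0.28). Tubb5 and ca2 each have 2 probe sets, and the other of each was not called. Of 13 notochord probe sets, 2 were called (15.4%), both of cav1 and in opposite directions (-0.23 and 0.17). Cav1 has 4 probe sets, and the others were not called. The rise was on a dim cav1 probe set, with a mean control log2 signal of 3.37. None of 3 hatching gland and 5 blood probe sets was called. Over the brightest probe set of each gene, muscle list log2 means were 9.88 to 10.11 in controls and 9.74 to 9.91 in morphine pools. Whether the share of tissues had a part in the krt18b value was not tested. Of the genes named from these lists, several lost their call in at least 1 of the 12 fits that left out a single pool. They were krt94, pleca, lama5, inab, dlx5a, dlx4a, sox19a and the dim cav1 probe set. The limma adjusted p rose up to 0.215 for krt94 and 0.197 for lama5. Without the 3 arrays of lowest actin difference, pleca, inab, the muscle troponin gene tnnt3a and the dim cav1 probe set also lost theirs (limma adjusted p = 0.114, 0.132, 0.167 and 0.200).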

How the data were processed

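RNA of 12 pools of embryos was labelled and hybridized to 1 array each. The deposited values are log2 signals that the authors obtained by RMA (background correction, quantile normalization over the arrays and summary of probes to probe sets), with versions not given in the sources used here. Of 15617 probe sets, 115 array controls were left out and 15502 tested. The annotation gives 1 gene to 10795 of them, several to 135 and none to 4572, and symbols were updated by gene identifier, with 10711 found in the RefSeq gene table (GRCz12tu). No RefSeq sequences were used here.

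Morphine and control pools were compared by a two-sided fit in limma 3.58.1 (R 4.3.3), adjusted by Benjamini-Hochberg across the whole table, and called at an adjusted p under 0.10. This step was tested on simulated data. Exact permutation tests used scipy 1.17.1, and figures matplotlib 3.10.9. The number of arrays limits the precision. Replicates are labelled as biological, and whether pools came from separate clutches is not given. Same-numbered pools deviated together (correlations 0.23 to 0.47, all 6 pairs), although only 3 of 12 arrays correlated best with their own number. The highest correlation was that of control 2 with morphine pool 1 (0.52). Between the groups, numbers 1 and 2 correlated negatively with numbers 3 to 6 (-0.43 to -0.04). The numbers were taken as pairs in an alternative fit, which does not separate pairing from this split of numbers.

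Named genes are all member probe sets, all called probe sets of other keratin genes, up to 4 called of each further list and the 10 most alike, and other keratin genes that were not called were named after their values were seen. Members and lists were chosen with earlier results of these data known. Alternatives were SAM with 100 permutations, trend and robust variance, array weights, renewed normalization, median centring, a filter at a log2 signal of 5 on 6 arrays, the block, leaving out each array and, added after seeing the data, the actin covariate and leaving out 3 arrays.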

Additional observations from a re-analysis of the deposited data

Results flagged for a closer look

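Of 54 groups of 6 arrays tested for a single array far from the rest, 3 had one, where chance flags about 1 in 20 groups. The krt18b signal of morphine pool 3 was 8.25, and the other morphine pools lay between 7.79 and 7.95. The same pool stood apart when krt18b was set against the mean of the other member genes, at -3.16 beside -3.62 to -3.47. Without this pool the log2 fold change of krt18b was -0.40. The other array was control pool 5 on the dimmer krt91 probe set, at 8.24 where the other controls lay between 8.62 and 8.76.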

How the results depend on the processing

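The krt18b call held under all 22 alternatives, with log2 fold changes from -0.40 to -0.31, and no other member probe set was called under any of them. Leaving out each array gave 1 called member throughout and 779 to 1152 called probe sets in all, against 1062. The replicate block (numbers as pairs) changed no member call and gave 1547 called probe sets in all. It gave 7 called probe sets of other keratin genes, 6 of periderm genes and 5 of basal genes. The actin covariate called 1429 probe sets in all, with 5 of periderm, 5 of basal and 2 of other intermediate filament genes. Array weights called 1238 in all, with 5 of periderm genes. Other intermediate filament genes had 0 called under trend and robust variance (1057 in all) and at an adjusted p under 0.05 (720 in all). They also had 0 without the 3 arrays of lowest actin difference (917 in all). Basal genes had 1 at an adjusted p under 0.05. Junction genes had 3 with the filter on dim probe sets (959 in all). Leaving out each array in turn gave 0 to 2 called for other intermediate filament, 3 to 7 for junction, 3 to 6 for periderm, 1 to 3 for basal and 3 to 6 for other keratin genes. The cause of these shifts was not tested.

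Values near 0 changed sign without being called. Leaving out each array gave log2 fold changes from -0.0070 to 0.0433 for krt4, -0.0214 to 0.0101 for the shared cyt1 probe set, -0.0135 to 0.0518 for krt18a.1, -0.0318 to 0.0898 for krt91 (dimmer probe set), -0.0032 to 0.0556 for krt93 and -0.0231 to 0.0629 for krt95. Renewed quantile normalization gave 0.0193 for the shared cyt1 probe set and -0.0034 for krt93, and leaving out the 3 low-actin arrays gave -0.0304 for krt18a.1 and -0.0055 for krt93. Sharing of probe sets between genes limits what can be read for cyt1.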
